A study of Mus musculus with 2 samples.

Results

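Lipocalins are small, mostly secreted proteins that fold into a barrel around a pocket for a hydrophobic molecule. In the nose they include the odorant-binding proteins and related lipocalins that glands release into the mucus, and the major urinary proteins, which carry small volatile molecules in urine and secretions. Lipocalin 2, encoded by *Lcn2*, stands apart from them in its known role, since it binds bacterial iron carriers and is made by neutrophils and by epithelia as a part of innate defence. The genes described here are *Lcn3*, *Lcn4* and *Lcn11*, which encode secreted lipocalins, *Obp1a*, *Obp2a* and *Obp2b*, which encode odorant-binding proteins, *Mup4*, which encodes a major urinary protein, and *Lcn2*. These 8 genes of the 32285 in the table were chosen by name, with earlier results of these data known.

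The data come from the vomeronasal organ (VNO), a tube at the base of the nasal septum that holds the vomeronasal sensory neurons (VSNs), supporting epithelia, glands and vessels. Cells were taken from 5 wild-type C57 BL/6J males at P60, dissociated, frozen, thawed and loaded as 2 samples with 10000 cells targeted in each, and every sample gave 1 droplet library read from the 3′ end of transcripts. There is 1 condition, so the comparisons are between cell classes, and the sources used here do not say how the mice were divided between the libraries. The p-values below therefore measure the spread between 2 libraries of a pool of mice, which may be technical.

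A count is a number of unique molecular identifiers (UMIs), 1 for each captured mRNA molecule, and a level in CPM is the number of its UMIs in every 1000000 that a group of cells held. Levels were not divided by transcript length, because every molecule is counted once from its end. The libraries held 108005626 and 95442231 UMIs, and the filters left 5694 and 4897 cells with a median of 6662 UMIs per cell over both. The kept cells fell into 32 clusters, of which 6 with 1702 cells were left unnamed, 3 of them for their leading genes or depth although at least 3 markers of a type were raised, and the rest made up 17 named classes. The clustering left out the *Lcn*, *Obp* and *Mup* genes, so none of the 8 genes defined a class. In all, 33 barcode sequences occurred in both libraries and were kept apart by library.

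Of the 8 genes, 6 lie on chromosome 2 of mm10. *Obp2a* (chr2:25700043-25703326), *Obp2b* (chr2:25737009-25740097), *Lcn3* (chr2:25765569-25768099) and *Lcn11* (chr2:25777017-25780279) follow each other on the plus strand within 80.2 kb. *Lcn4* (chr2:26667674-26671282) and *Lcn2* (chr2:32384633-32388252) lie on the minus strand, 887 kb and 6604 kb beyond this span. *Obp1a* is on chromosome X (chrX:78085505-78091374) and *Mup4* on chromosome 4 (chr4:59956804-59960710), both on the minus strand. All 8 are annotated as protein coding, with at most 7 exons in a transcript apart from *Lcn11*, which has 6. Reads of close copies can be assigned to the wrong gene, so the last 500 bases of each transcript were searched for stretches of 91 bases that also occur in a transcript of another gene. None of the 410 stretches of any of the 8 genes did, although this does not cover reads with mismatches.

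Upstream sequences are shown for the 4 genes with the highest levels, because *Obp2a* and *Obp2b* had the most similar pattern over the cell classes described below. Their levels themselves differed widely. Each line gives the 90 bases that end 10 bases before the RefSeq start of the gene (GRCm38.p6), 5′ to 3′ on the strand of the gene, with the TATA box letters TATAAA in capitals. The windows are chr2:25699974-25700063 (plus) for *Obp2a*, chr2:25736907-25736996 (plus) for *Obp2b*, chr2:25765433-25765522 (plus) for *Lcn3* and chr2:26671293-26671382 (minus) for *Lcn4*.
Obp2a: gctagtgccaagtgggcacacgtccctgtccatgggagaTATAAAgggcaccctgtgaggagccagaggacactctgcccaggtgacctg
Obp2b: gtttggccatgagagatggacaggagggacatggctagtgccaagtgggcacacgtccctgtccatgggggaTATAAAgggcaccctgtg
Lcn3: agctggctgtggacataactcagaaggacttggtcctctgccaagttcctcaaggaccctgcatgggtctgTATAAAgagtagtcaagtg
Lcn4: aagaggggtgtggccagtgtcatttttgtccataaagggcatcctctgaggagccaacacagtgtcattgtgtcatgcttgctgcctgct

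TATAAA occurred on the gene strand of this window in 5 of the 8 genes, namely *Lcn3*, *Obp1a*, *Obp2a*, *Obp2b* and *Mup4*, and in 3.57% of the windows of all 32544 RefSeq genes. Counting either strand, 5.20% of all windows held it. It began 28 bases before the RefSeq start of *Obp2b* and 29 bases before that of *Lcn3*. In *Obp2a* it began 61 bases before the RefSeq start, and the GENCODE start of this gene at 25700043 lies inside the window shown. The motif of *Obp2a* lies before this GENCODE start and nearer to it than to the RefSeq start. The last bases of its window lie inside the GENCODE gene. In the aligned part of the RefSeq promoters of *Obp2a* and *Obp2b*, which reach beyond the windows shown, 263 of 267 bases (98.5%) were identical. The promoters of *Lcn4* and *Obp2a* shared 172 of 236 aligned bases (72.9%). A match of letters is a description of the sequence and does not show a site in use.

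Transcripts of 5 of the genes made up over 20% of all RNA counted in the gland-like cells. This class held 447 cells, 226 of library 1 and 221 of library 2, with a median of 18597 UMIs per cell. It was named from 10 of 16 gland markers raised at least 4-fold, among them *Muc5b*, a gel-forming mucin, *Pigr*, the transporter of secretory antibodies, and *Agr2* and *Creb3l1*, which act in the secretory pathway. *Pigr*, *Agr2* and *Creb3l1* were each raised in another cluster too. Of the listed markers not raised here, *Aqp5* was raised in a basal-like cluster and *Bpifa1* in the non-sensory epithelial-like cluster. No other cluster had more than 2 of the list raised. *Lcn3*, *Lcn4*, *Lcn11*, *Obp2a* and *Obp2b* together took 27.3% of the UMIs of these cells in library 1 and 22.1% in library 2. *Wfdc18*, which encodes a small secreted protein, took 26.5% and 29.0% by itself.

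*Obp2a* reached 145766 CPM in library 1 and 105132 in library 2, a mean of 125449 ± 28733 (SD, n = 2). *Lcn3* followed with 103383 and 99862 CPM, or 101622 ± 2490 (SD, n = 2). The libraries differed more in *Obp2a* than in *Lcn3*, and the lower *Obp2a* value lay close to the *Lcn3* values. *Lcn4* stood at 14908 and 8609 CPM, *Obp2b* at 7960 and 6360, and *Lcn11* at 713 and 566. For each of these 5 genes the gland-like class had the highest level of the 17 classes, and its lowest library lay above the highest library of any other class. Next in the order for *Obp2a* were neutrophil-like cells at 3197 and 2723 CPM and fibroblast- and mural-like cells at 2564 and 1823, each without overlap with the class below it. The second of these ranks rested on 1 cell in each library, with 4851 and 2335 UMIs, without which the class was at 665 and 636 CPM. From T cell-like cells (1170 and 1197) down to sustentacular-like cells every class overlapped its neighbour. For *Lcn3* the fibroblast- and mural-like cells came next, at 919 and 1811 CPM, which also rested on 1 cell in each library, followed by neutrophil-like cells at 905 and 830, and from there down all neighbours overlapped to the lowest class, mature VSN-like cells, at 166 and 90.6. *Lcn4* ended at 53.8 and 31.6 CPM in non-sensory epithelial-like cells and *Obp2b* at 28.6 and 17.0 in mature VSN-like cells, while *Lcn11* was at 0 in ensheathing-like and NK cell-like cells. Of the UMIs that the kept cells held, 96.4% for *Lcn3*, 94.7% for *Obp2a*, 93.8% for *Lcn4*, 93.6% for *Obp2b* and 87.8% for *Lcn11* lay in gland-like cells. For *Lcn2* this share was 22.4%.

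**Figure D1:**
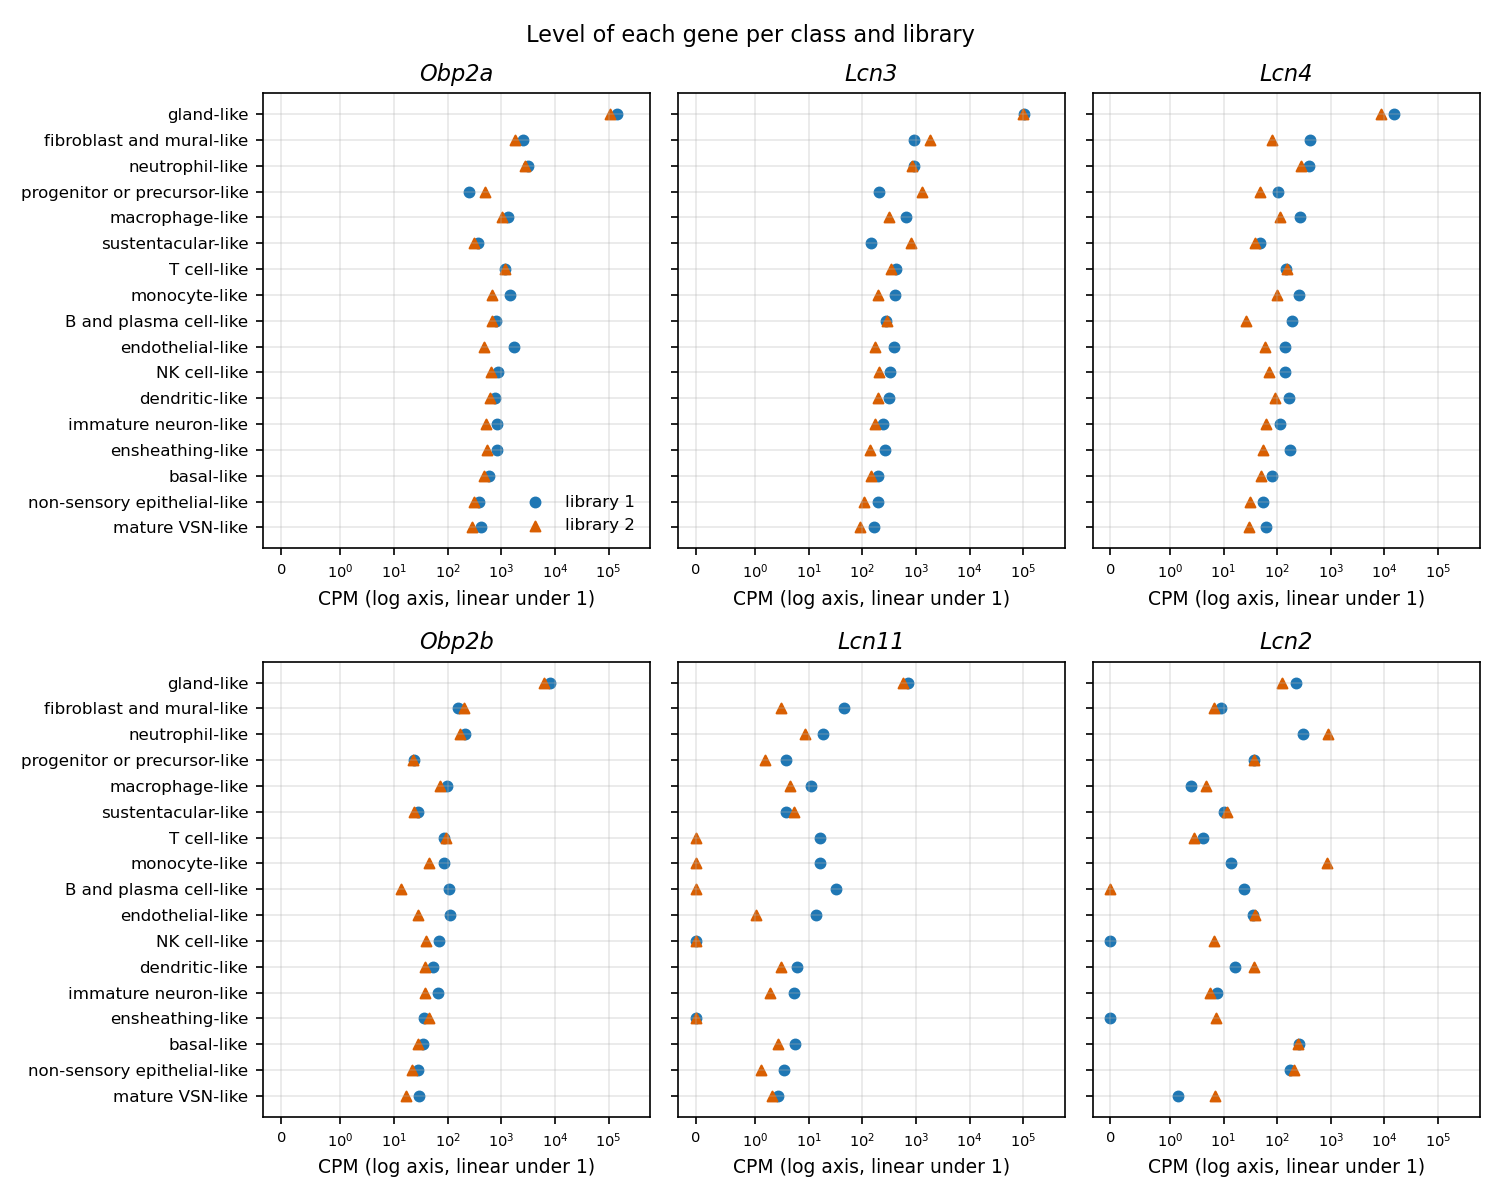
Level of each gene in CPM (log axis) in the 17 named classes, with a point for each of the 2 libraries. For *Obp2a*, *Lcn3*, *Lcn4*, *Obp2b* and *Lcn11* the gland-like points lie far above all others, while for *Lcn2* neutrophil-like, monocyte-like, basal-like and non-sensory epithelial-like cells reach or pass the gland-like level.

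To compare classes, UMIs were summed per library and class and fitted with edgeR's quasi-likelihood test over 17982 genes, of which 7 were members of this group. *Obp1a* had too few UMIs to be tested. Against sustentacular-like cells, the supporting cells of the sensory epithelium, 6 of the 8 genes were called higher in gland-like cells at an adjusted p under 0.05, where 14.6% of all genes tested were higher. *Obp2a* stood at 360 and 310 CPM in the sustentacular-like cells, a log2 difference of 9.77 ± 0.56 (SE). *Lcn3* stood at 147 and 804 CPM there, a difference of 8.98 ± 0.78, and *Lcn4*, *Obp2b* and *Lcn11* differed by 9.33, 9.31 and 8.35. *Lcn2* was higher by 5.21 ± 0.70, from 10.2 and 11.7 CPM in the sustentacular-like cells, with the largest edgeR adjusted p of these 6 genes (3.6e-07). This does not hold for gland-like cells at large, since 20.8% of them had an *Lcn2* UMI. Of their 1847 *Lcn2* UMIs, 1602 lay in the 31 cells of 1 subcluster, number 6 below. *Mup4* was not called (3.43 ± 1.56, edgeR adjusted p = 0.11).

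Against non-sensory epithelial-like cells, a class with markers of the epithelium outside the sensory layer, 6 of the 8 genes were called higher in gland-like cells, where 15.6% of all genes were. *Lcn3* differed the most of these, by 10.26 ± 0.82 on the log2 scale, followed by *Obp2a* (9.39 ± 0.55), *Obp2b* (9.04), *Lcn4* (8.98) and *Lcn11* (8.87). The call of *Mup4* (5.85 ± 1.75, adjusted p = 0.013) rested on 16 UMIs that all came from 1 cell of library 2. The fitted size of this difference is no bound, since it depends on the small count that the fit adds where a class has none. *Lcn2* was not called here, at 224 and 123 CPM in gland-like and 176 and 206 CPM in non-sensory epithelial-like cells. Its log2 difference was 0.75 ± 0.49 (edgeR adjusted p = 0.27), and 0.80 with an adjusted p of 0.018 with the library as a block. In each library 1 gland-like cell, with 652 and 285 *Lcn2* UMIs, held about as many as all others together. Without it the gland-like level was 110 and 62.2 CPM, below the 167 and 191 CPM of non-sensory epithelial-like cells without their highest cell. The fitted difference was -0.05 (edgeR adjusted p = 0.97) without the cell with the most UMIs of each gene other than *Obp1a* and *Mup4* in every class and library. Without the TMM scaling, which accounts for the large share taken by a few secreted products, the difference was -0.13.

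Against endothelial-like cells, which have no known role in secretion into mucus and served as a reference for free RNA, 7 of the 8 genes were called higher in gland-like cells, where 19.6% of all genes were. *Lcn3* differed by 9.67 ± 0.81, *Lcn4* by 8.07, *Obp2a* by 8.0 ± 0.52, *Obp2b* by 7.84 and *Lcn11* by 7.67 on the log2 scale. *Lcn2* differed by 3.43 ± 0.57 (edgeR adjusted p = 6.7e-06), again with 1602 of the 1847 gland-like UMIs in 31 cells. In the largest subcluster of gland-like cells, number 1 below, *Lcn2* was at 1.17 and 1.16 CPM, under the 34.8 and 39.2 CPM of endothelial-like cells. Not every subcluster lay below them. *Mup4* differed by 5.85 ± 1.86 (adjusted p = 0.014) from the same 16 UMIs. Leaving out TMM lowered the differences of gland-like cells by 1.22, 0.87 and 1.17 in the 3 comparisons, as a median over the 8 genes without *Obp1a* and *Mup4*. The smallest difference of *Lcn3*, *Lcn4*, *Lcn11*, *Obp2a* and *Obp2b* without TMM was 6.50, for *Lcn11* against endothelial-like cells.

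Gland-like cells differed widely in how much of their RNA came from these genes. A cell held a median of 433 *Lcn3* UMIs and 93 *Obp2a* UMIs, against means of 2363 and 2956. The 5 genes together made up a median of 14.8% of the UMIs of a cell, with quartiles at 1.02% and 29.3% and a highest value of 81.9%. Over 10% was reached by 273 of the 447 gland-like cells and by 14 of the 10144 cells outside the class.

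*Lcn3* and *Obp2a* were not made in fixed proportion. Of 360 gland-like cells with at least 20 UMIs of both genes together, 115 (31.9%) had at least 90% of them from *Lcn3*. In 9 cells (2.50%) at least 90% came from *Obp2a*, and the other 236 lay between. Over the 447 cells, the shares of UMIs of *Obp2a* and *Obp2b* had a Spearman correlation of 0.87, those of *Lcn4* and *Obp2b* of 0.75, and those of *Lcn3* and *Obp2a* of 0.49. *Lcn2* ran the other way, with -0.45 against *Obp2a* and -0.41 against *Lcn3*. In the 326 cells with at least 5000 UMIs the values were 0.90, 0.73, 0.55, -0.48 and -0.44 in the same order. These cells share 2 libraries and a common total, since a cell with a large share of 1 gene has less left for others, and the values are a description.

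**Figure D2:**
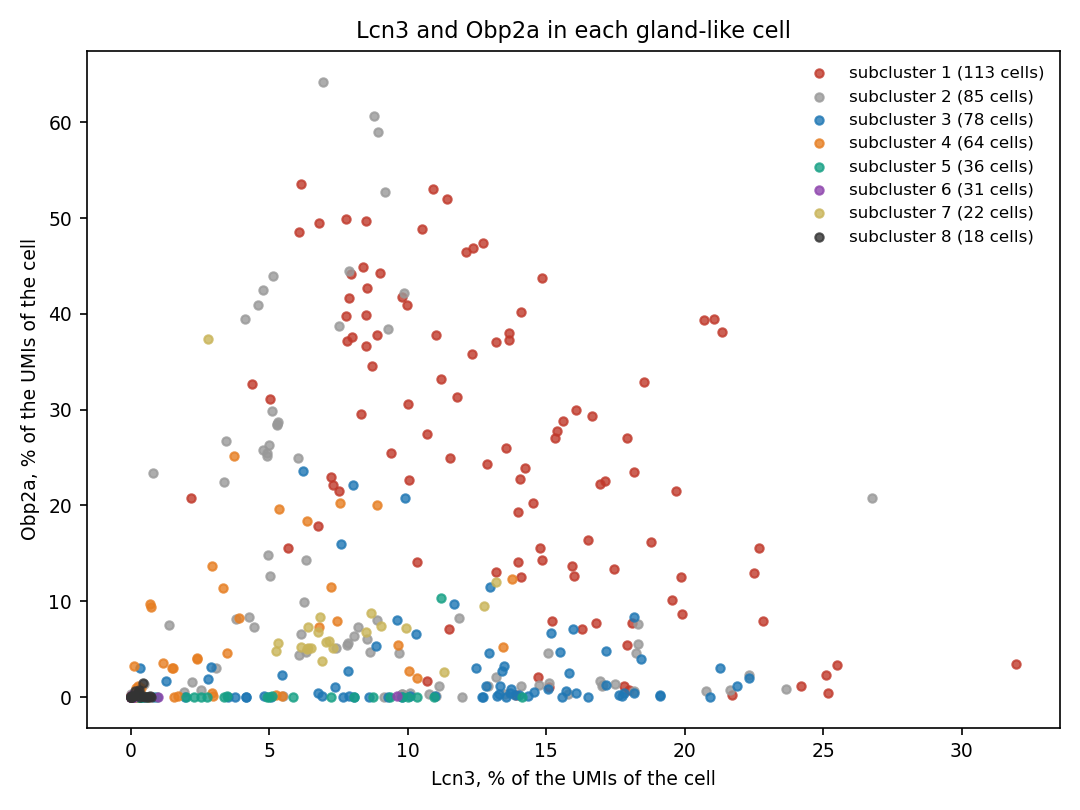
Share of the UMIs of each gland-like cell from *Lcn3* (x axis, %) and *Obp2a* (y axis, %), with a point per cell coloured by subcluster. Many cells, most often of subcluster 3, lie along the x axis with *Lcn3* and almost no *Obp2a*, while cells of subclusters 1 and 2 reach the highest *Obp2a* shares, up to 64.3%.

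The gland-like cells were clustered again without the lipocalin, Obp and Mup genes, which gave 8 subclusters that are named here by number and leading genes. Subcluster 1 (113 cells) was led by *Scgb1b7*, a secretoglobin, and *Bpifb1*, a secreted defence protein of airways. It had the highest mean of *Obp2a*, with 266754 and 213308 CPM, beside 134992 and 126206 CPM of *Lcn3*, 27289 and 17802 of *Lcn4* and 14813 and 13078 of *Obp2b*. *Lcn2* was at 1.17 and 1.16 CPM in these cells. In subcluster 3 (78 cells), led by *Scgb1c1* and *Rgs2*, *Lcn3* was as high as in subcluster 1, at 136199 and 116966 CPM. *Obp2a* was lower there, at 19816 and 41800 CPM, and the values of both libraries lay below those of subcluster 1.

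Subcluster 4 (64 cells), led by *Thbs1* and *S100a6*, held 34267 and 43121 CPM of *Lcn3* and 67303 and 59731 CPM of *Obp2a*, with 518 and 62.0 CPM of *Lcn4* (235 in library 1 without its highest cell). Subcluster 5 (36 cells), led by *Igfbp5* and *Il33*, held 31187 and 59358 CPM of *Lcn3*, which was 19332 CPM in library 1 without its highest cell. *Obp2a* was at 13494 and 195 CPM, and 6687 of the 6804 UMIs of library 1 lay in 1 cell, without which it was at 266 CPM. Subcluster 2 (85 cells) was led by *H2-Aa* and *Cd74*, genes of antigen presentation, and had a median of 1271 UMIs per cell. Its *Lcn3* was at 107808 and 110711 CPM and its *Obp2a* at 270450 and 70397 CPM, and 1 cell in each library, with 26903 and 5345 UMIs, carried much of the latter, which was 170581 and 41570 CPM without it. The part of antigen-presenting cells in the values of this subcluster was not tested.

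Subcluster 6 (31 cells) showed the reverse pattern. It was led by *Serpina1e*, *Kng2* and *Aldoc*, and *Reg3g*, an antimicrobial lectin, was among its 10 leading genes. *Lcn2* stood at 3752 and 2161 CPM and every cell had an *Lcn2* UMI. Without the highest cell of each library it was at 1799 and 970 CPM, still above the tested subclusters 1 to 5. *Lcn3* was at 1071 and 8256 CPM, and at 177 and 299 CPM without its highest cells, of 272 and 1777 UMIs. *Obp2a* was at 244 and 431 CPM, of the size it had in the lowest classes outside the glands. *Serpina1e* is also on the list of non-sensory epithelial markers, 1 of 8 genes of that list.

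Among the 6 subclusters with at least 10 cells in each library, 6 of the 8 genes were called different, where 17.0% of 11066 genes were. The subclusters were drawn on other genes of the same cells, so the test takes them as given. The edgeR adjusted p was 2.6e-17 for *Lcn2*, 3.9e-12 for *Lcn4*, 7.9e-11 for *Lcn11*, 1.5e-10 for *Lcn3*, 7.8e-10 for *Obp2b* and 9.0e-10 for *Obp2a*. *Mup4* had an adjusted p of 0.076, and of 0.015 with the library as a block, where 21.0% of all genes were called. Among these 6, *Lcn11* ranged from 3.35 and 31.4 CPM in subcluster 6, where 1 cell in each library held all its UMIs, to 966 and 821 CPM in subcluster 1. Subclusters 7 (22 cells, led by *Vmn2r76*, a VSN receptor) and 8 (18 cells) were too small for the test.

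**Figure D3:**
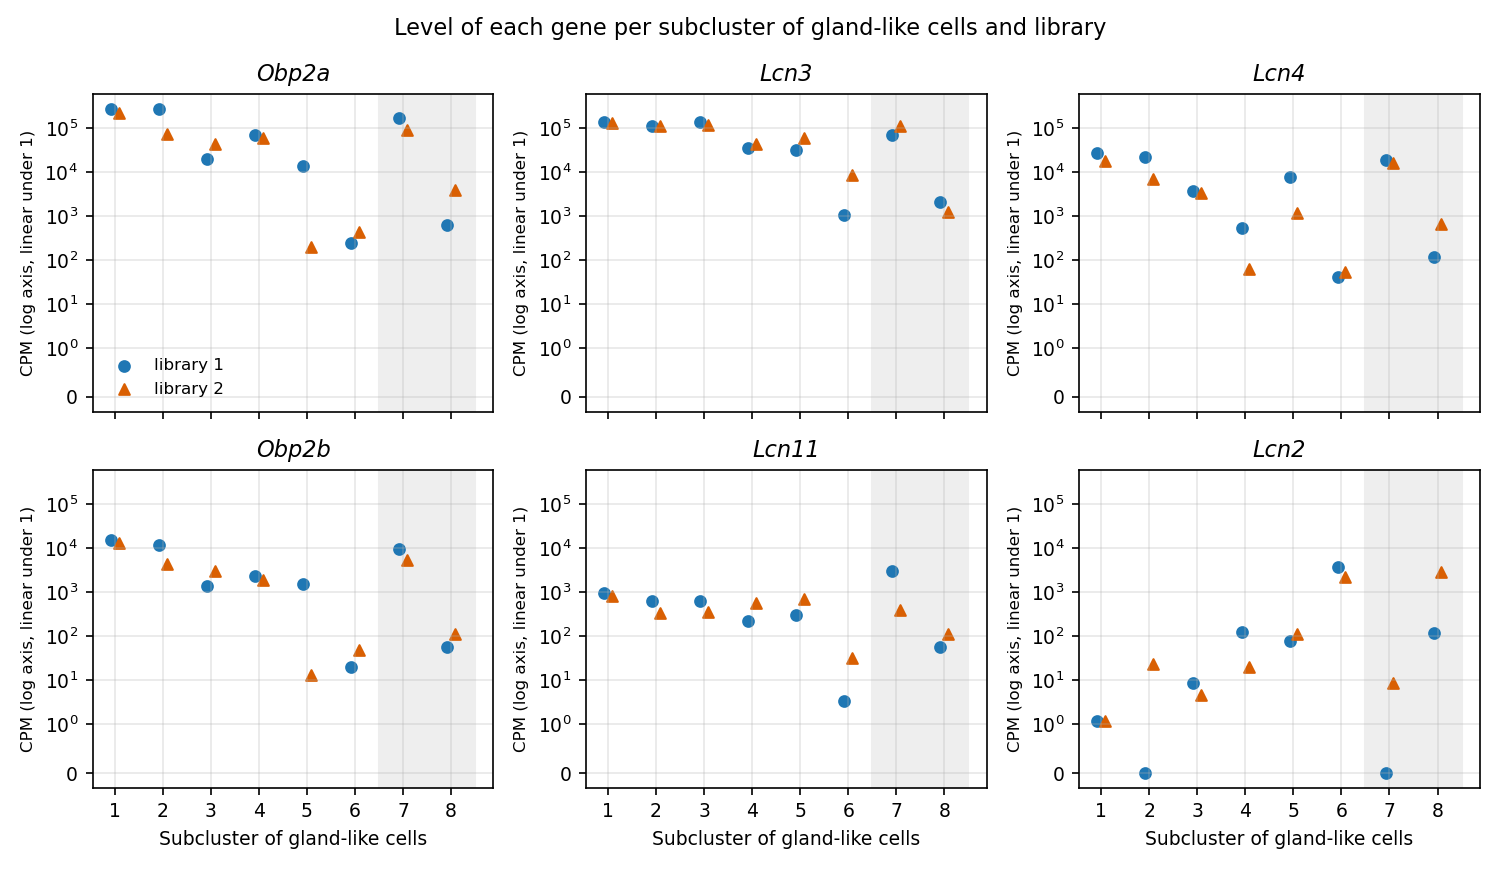
Level of 6 genes in CPM (log axis, linear under 1) in the 8 subclusters of gland-like cells, with a point for each library. Grey marks subclusters 7 and 8, which were not tested. Among the 6 tested subclusters *Obp2a*, *Lcn4* and *Obp2b* have their highest means in subclusters 1 and 2, *Lcn3* is as high in subcluster 3, and *Lcn2* is highest in subcluster 6.

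RNA set free by broken cells can enter any droplet, so an abundant secretory transcript can be counted in cells that do not make it. The part of free RNA in the counts below was not tested. Outside the gland-like class the count of these transcripts per cell was low and nearly constant. In 30 of the 31 other clusters the median cell held 2 to 5 *Obp2a* UMIs and 1 or 2 *Lcn3* UMIs, although the median depth of these clusters ran from 840 to 27534.5 UMIs. The exception was an unnamed cluster with medians of 49 and 31. The median of *Lcn4*, *Obp2b* and *Lcn11* was 0 in 30 of the 31 clusters. An *Obp2a* UMI was found in 95.7% of gland-like cells, 90.6% of mature VSN-like cells and 88.0% of endothelial-like cells, so its presence alone did not separate them. With every cell thinned to 1000 UMIs the shares were 74.0%, 23.2% and 40.8%, and 79.6% in neutrophil-like cells, whose share before thinning was 87.4%. In CPM the same counts gave a range of *Obp2a* means from 335 in sustentacular-like to 2960 in neutrophil-like cells, the class with the lowest median depth of 1592 UMIs.

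The ratio of the genes to each other was then compared between classes. For every 100 UMIs of *Obp2a*, gland-like cells held 5.68 of *Obp2b*, and the other classes held between 5.82 in basal-like cells and 9.33 in the 50 B and plasma cell-like cells. For *Lcn4* the gland-like value was 9.46, and mature VSN-like, macrophage-like and neutrophil-like cells had 13.4, 16.4 and 11.6. *Lcn3* was lower against *Obp2a* in most classes than in the glands, with 79.9 in gland-like, 37.4 in mature VSN-like, 40.8 in macrophage-like and 29.2 in neutrophil-like cells. The values of sustentacular-like cells (137) and progenitor- or precursor-like cells (189) came from library 2, at 259 and 260, and were 40.7 and 79.4 in library 1. Without the cell with the most *Lcn3* in each class and library, no named class outside the glands had more than 48.7, and gland-like cells had 67.6 and 90.6. Unnamed clusters were not in this comparison. With every cell, that of 569 cells led by *Ovol3* had 127 and that of 221 cells had 61.8. Without its highest cell for each gene, the *Ovol3*-led cluster was at 2013 and 1634 CPM of *Lcn3* and 5300 and 2740 of *Obp2a*. Its median depth was 1094 UMIs.

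**Figure D4:**
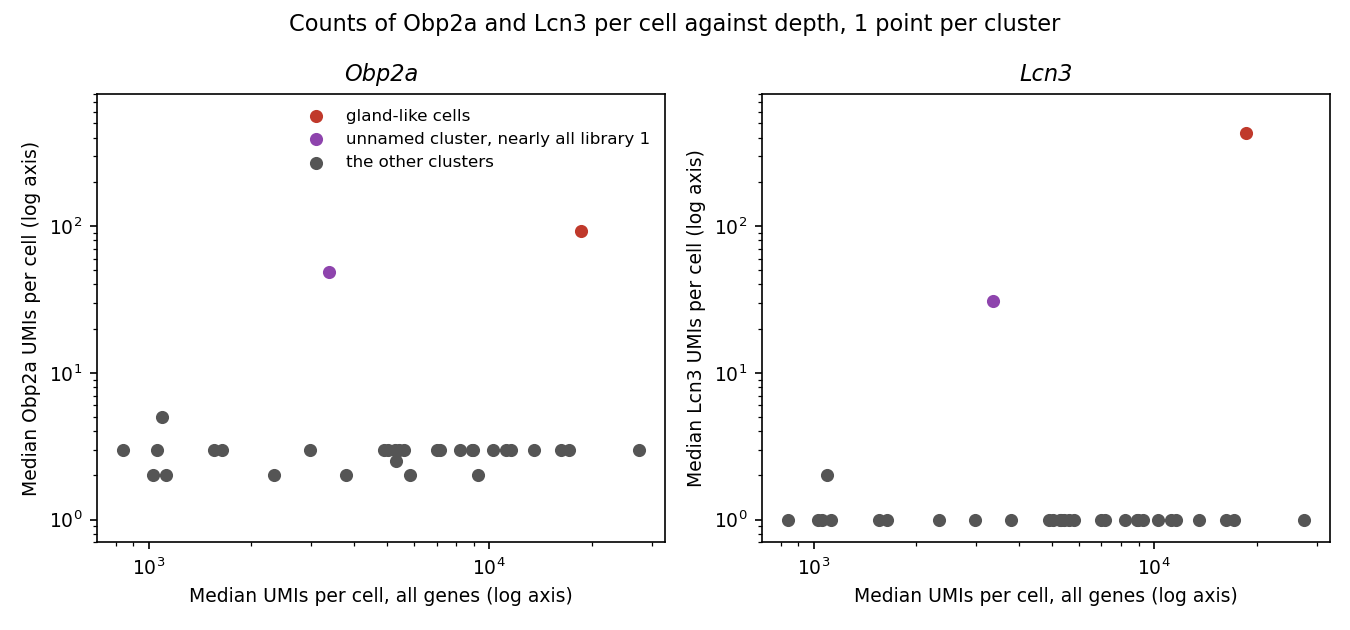
Median *Obp2a* and *Lcn3* UMIs per cell (y axis) against the median UMIs of all genes per cell (x axis, log), with a point for each cluster. Apart from the gland-like cluster and an unnamed cluster of 221 cells, the medians stay at 5 or below at all depths.

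Single cells set several of the high means outside the glands, though not that of neutrophil-like cells, whose *Obp2a* was at 2923 and 2578 CPM without its highest cell. In sustentacular-like cells of library 2, 1193 of the 1372 *Lcn3* UMIs were in 1 cell, and without it the level was 109 CPM in place of 804. In progenitor- or precursor-like cells of library 2 it was 1485 of 1651 UMIs in 1 cell, and 132 CPM in place of 1274. In fibroblast- and mural-like cells single cells with 1832 and 3133 UMIs carried the *Lcn3* level of library 1 and library 2, which without them was 202 and 206 CPM in place of 919 and 1811. In endothelial-like cells of library 1, 2 cells with 1116 and 1043 UMIs moved *Obp2a* from 910 to 1722 CPM, and without every cell of 100 UMIs or more the level was 566 CPM. Whether such barcodes hold a gland cell beside another cell was not tested. Endothelial-like values enter the next 3 comparisons with these cells included.

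Mature VSN-like cells were set against endothelial-like cells to ask whether neurons hold more of these transcripts than this reference for free RNA. The fitted differences of 6 genes were negative, *Mup4* had no UMI in either class, and 3 of the 8 genes were called lower, where 27.2% of all genes tested were lower. *Obp2a* stood at 411 and 286 CPM in mature VSN-like and 1722 and 471 CPM in endothelial-like cells (log2 difference -1.78 ± 0.40, edgeR adjusted p = 0.00028), and the ranges did not overlap. *Obp2b* differed by -1.71 ± 0.38 (adjusted p = 0.00023). *Lcn2* was at 1.42 and 6.98 CPM against 34.8 and 39.2 (-3.33 ± 0.77, adjusted p = 0.00041), a call that was lost without 36 endothelial-like cells of a *Ccl21a*-led cluster (-1.76, adjusted p = 0.10). In library 2, 22 of the 30 UMIs of mature VSN-like cells lay in 1 cell. With the library as a block 6 genes were lower, where 28.7% of all genes were. With cells in place of UMIs as the size, 1 gene (*Lcn2*) was lower, where 14.7% of all genes were. A mature VSN-like cell had a median of 13826 UMIs and an endothelial-like cell of 5453, and the median *Obp2a* count was 3 and 2. Without library 1 fewer of the 8 genes were called, as of all genes, in a fit that leaves each of the 2 classes 1 library.

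Sustentacular-like cells had 2 of the 8 genes called lower than endothelial-like cells, where 18.5% of all genes were lower. These were *Obp2a* (-1.77 ± 0.40, adjusted p = 0.00057) and *Obp2b* (-1.47 ± 0.41, adjusted p = 0.0047), and neither was called without library 1. With the library as a block 4 genes were lower, where 20.3% of all genes were. *Lcn3* had a difference of 0.69 ± 0.57 (adjusted p = 0.39), which was 2.18 without library 1 and -1.44 without library 2, the library with the cell of 1193 UMIs, and -1.09 (adjusted p = 0.0022) without the cells with the most UMIs. With cells as the size *Lcn3* was called higher (1.58), where 6792 of 17982 genes were. In library 2 it was at 10.0 UMIs per sustentacular-like cell, and at 1.32 without the cell of 1193 UMIs.

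Neutrophil-like cells had 5 of the 8 genes called higher than endothelial-like cells, where 14.9% of all genes were higher, but only *Lcn2* was also called higher per cell. *Obp2a* stood at 3197 and 2723 CPM in neutrophil-like cells (log2 difference 1.64 ± 0.40), *Lcn3* at 905 and 830 CPM (1.85 ± 0.59), and *Lcn4* and *Obp2b* differed by 2.00 and 1.66. With cells in place of UMIs as the size these 4 differences turned to -0.68, -0.48, -0.34 and -0.67, none of them called, while that of *Lcn2* was 1.83 (adjusted p = 0.0045), where 4.42% of all genes were higher. Without library 2 fewer of the 8 genes were called, as of all genes, in a fit that leaves each of the 2 classes 1 library. *Lcn2* differed by 4.22 ± 0.59 in CPM (edgeR adjusted p = 4.5e-07).

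*Lcn2* was thus spread over other cells than the rest of the group. Its highest class levels were 305 and 872 CPM in neutrophil-like, 13.6 and 851 in monocyte-like, 257 and 243 in basal-like, 176 and 206 in non-sensory epithelial-like and 224 and 123 CPM in gland-like cells (110 and 62.2 without the highest cell of each library). Neutrophil-like and monocyte-like values overlapped, as did monocyte-like and basal-like ones, and, with every cell included, non-sensory epithelial-like and gland-like ones, whereas basal-like cells lay above non-sensory epithelial-like cells in both libraries. Next came endothelial-like cells at 34.8 and 39.2 CPM. Macrophage-like, T cell-like and NK cell-like cells had at most 6.51 CPM of it in a library.

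The neutrophil value came from 1 of its clusters. The cluster led by *Retnlg*, a gene of neutrophil granules, had 524 and 1592 CPM, and that led by *Siglecf* 41.0 and 58.6 CPM, without overlap. In library 2, 2 cells with 165 and 157 UMIs held much of the count, and without them the *Retnlg*-led cluster was at 575 CPM and the whole class at 326 CPM. The monocyte value of library 2 was 169 of 171 UMIs in 1 cell, and 10.6 CPM without it. These are clusters of the same cells, whose comparison has no test.

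In the surface epithelia *Lcn2* was broadly present. An *Lcn2* UMI was found in 51.9% of basal-like cells and 54.0% of non-sensory epithelial-like cells, at median depths of 8558 and 10282 UMIs, against 1.45% of macrophage-like cells at a median of 4441 UMIs. With every cell thinned to 1000 UMIs the shares were 16.1%, 12.9% and 0.373%. Both classes together held 55.3% of the *Lcn2* UMIs of kept cells. Among basal-like cells, the cluster led by *Abca4* had 336 and 297 CPM and that led by *Gm94* and *Krt13*, a keratin of stratified epithelium, 46.6 and 78.4 CPM. A cluster of 36 endothelial-like cells led by *Ccl21a*, a chemokine of lymphatic vessels, had 550 and 454 CPM, with a UMI in 80.6% of its cells. An unnamed cluster led by *Sntn*, a gene of cilia, had 227 and 631 CPM, and 134 in library 1 without its highest cell.

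**Figure D5:**
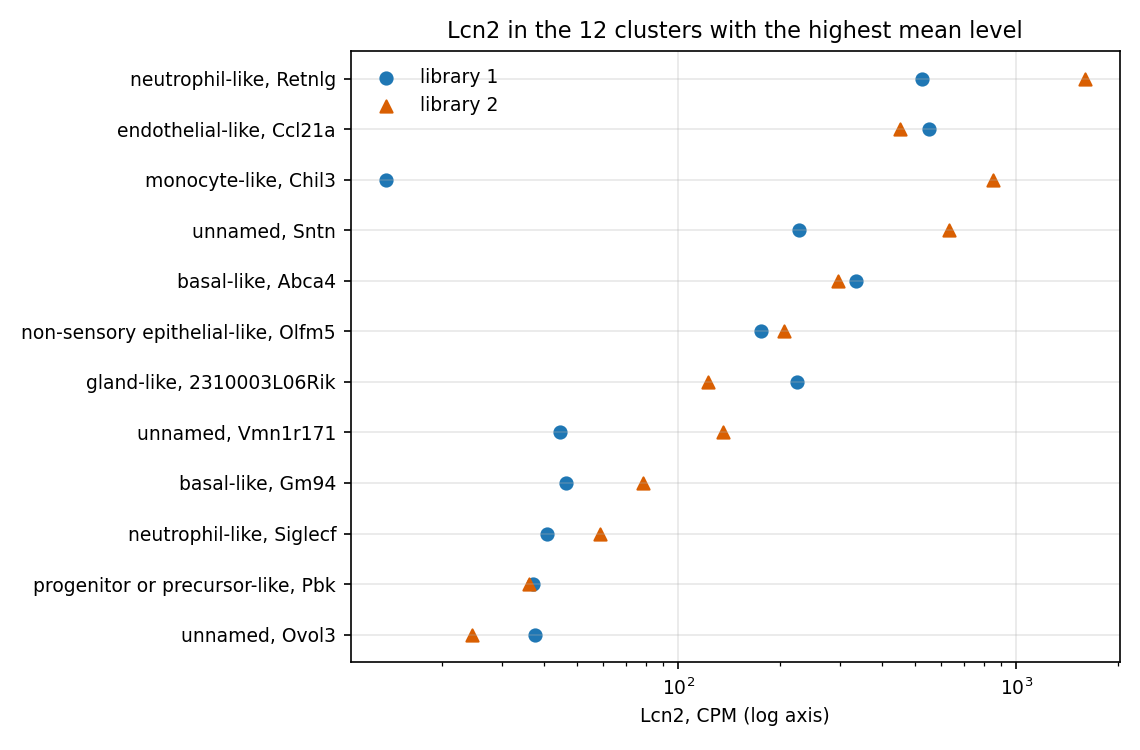
Level of *Lcn2* in CPM in the clusters of kept cells with the highest mean levels, with a point for each library. Clusters with lower means are not shown. The *Retnlg*-led neutrophil-like, the *Ccl21a*-led endothelial-like, the *Abca4*-led basal-like, the *Sntn*-led, the gland-like and the non-sensory epithelial-like clusters stand above 100 CPM in both libraries with every cell included.

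Most *Lcn2* molecules lay in barcodes that the filters removed, as did most UMIs of all genes, of which kept cells held 89061958 of 203447857. Of 38427 *Lcn2* UMIs in all barcodes, 21.5% were in kept cells, against 91.5% for *Lcn3* and 89.5% for *Obp2a*. Raising the limit on mitochondrial UMIs from 5% to 10% gave 741 gland-like cells in 2 clusters. The cluster of 507 cells, led by *Scgb1b7* and *Dcpp3*, had 24.5 and 19.5 CPM of *Lcn2*, with 109204 and 105650 CPM of *Lcn3* and 148939 and 111959 CPM of *Obp2a*. The other, of 234 cells, had 4877 and 4463 CPM of *Lcn2*, a UMI in 93.2% of its cells, and 52.1% of all *Lcn2* UMIs of the series. *Obp2a* was at 286 and 347 CPM and *Lcn3* at 817 and 1968 CPM in it.

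This cluster was led by *Sprr2f*, *Sult1c1* and *Il1f6*, with *Cxcl5* and *Csf3*, which act on neutrophils, among its 10 leading genes. It took the gland name because 44 of its 58 cells under 5% were gland-like before, but no gland marker was among its leading genes, and *Sprr2f* was also among those of the non-sensory epithelial-like cluster. Its median mitochondrial share was 6.53%, and the part of cell damage in its level was not tested. Its 58 cells under 5% had 2779 and 1998 CPM of *Lcn2*. The gland-like level of *Lcn2* at this limit was 1461 and 1343 CPM, and its log2 difference from non-sensory epithelial-like cells was 3.97 with an adjusted p of 3.5e-08.

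*Obp1a* and *Mup4* had few UMIs anywhere. *Obp1a* had 5 UMIs in 5 kept cells, and none in the 447 gland-like cells, where a count of 0 still permits up to 0.671% of cells with a UMI. All barcodes together held 52 *Obp1a* UMIs in 20 barcodes and 64 *Mup4* UMIs in 21. The highest counts of both, 15 and 18 UMIs, were in the same barcode of library 1, which had 7060 UMIs and was left out for a mitochondrial share of 6.91%. Among kept cells *Mup4* had 25 UMIs in 8 cells, 16 of them in the gland-like cell named above.

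Over the 32 sums of class and library, the genes outside the family with a pattern most like a member were mostly other secreted products of gland-like cells. The Pearson correlation of log2(CPM + 1) was 0.98 between *Lcn3* and *Dmbt1*, a mucin-like defence protein, followed by *Wfdc18* and *Pip*, both at 0.95. *Pip*, a secreted prolactin-induced protein, was also the closest to *Obp2a* and *Obp2b*, each at 0.91. *Lcn4* was closest to *Adtrp* and *Gp2*, both at 0.88, and *Lcn11* to *Agt* and *Pip*, both at 0.82. For *Lcn2* they were *Gpcpd1* and *F5*, both at 0.82, and *Gda* at 0.78, and its correlation with the other members was between 0.21 and 0.32. *Obp2a* and *Obp2b* had 0.99. *Mup4* was closest to *Bco1* at 0.72, from few UMIs. The sums share libraries and may share free RNA, so the values are a description.

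Of 37 other genes of the lipocalin fold, 28 with Lcn, Obp or Mup symbols and 9 others, 6 had enough UMIs to be tested. The 3 comparisons of gland-like cells held 1 call among them, a lower *Ptgds* than in sustentacular-like cells (-3.15). Of all 17982 genes tested, 5391 were called against sustentacular-like, 5582 against non-sensory epithelial-like and 7288 against endothelial-like cells. Several of the 6 had few or no UMIs in gland-like cells. *Apod*, an apolipoprotein of glia and connective tissue, was highest in fibroblast- and mural-like cells at 2850 and 4385 CPM, with 0.705 and 2.76 in gland-like cells. *Rbp4*, the retinol carrier of blood, was at 190 and 184 CPM in the same class and at 0 in gland-like cells. *Ambp* was called higher in neutrophil-like than in endothelial-like cells, at 10.8 and 12.1 CPM against 0 in both libraries. *C8g* and *Ptgds*, a prostaglandin synthase, were called higher in sustentacular-like than in endothelial-like cells (1.93 and 2.28), from 1.14 and 1.35 CPM of each in the latter.

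Receptors known to take up lipocalins were measured for comparison, with 3 of 4 tested. *Slc22a17*, which binds lipocalin 2, was highest in ensheathing-like cells at 157 and 203 CPM, followed by mature VSN-like cells at 51.2 and 55.6. Against endothelial-like cells it was called higher in mature VSN-like (2.24), sustentacular-like (1.74) and gland-like cells (1.36) and lower in neutrophil-like cells (-3.37). *Stra6*, the receptor of the retinol carrier, was highest in fibroblast- and mural-like cells at 29.1 and 40.5 CPM, and higher in sustentacular-like than in endothelial-like cells (2.02). *Lmbr1l* was highest in T cell-like cells at 30.7 and 30.6 CPM and was called lower in gland-like cells in all 3 comparisons. *Lrp2* had 5 UMIs and was not tested.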

How the data were processed

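UMI counts per gene and barcode of both libraries were merged with Cell Ranger aggr on mm10 and deposited by the authors, as whole numbers of UMIs. The submitters' processing notes name Cell Ranger 4 and Seurat 3.2.3. The depth setting of aggr and the strand setting of counting are not given in the sources used here. The library of a barcode was read from its number, and no column of another sample was present (0 unused).

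Cells with 200 to 9000 genes and at most 5% mitochondrial UMIs (13 genes) were kept and clustered with Seurat 5.3.0 in R 4.3.3 (2000 variable genes, 30 principal components, resolution 0.8, and 10 components at 0.8 for the gland-like cells), without *Lcn*, *Obp* and *Mup* genes. A cluster was named where at least 3 listed markers were raised at least 4-fold with at least 10 UMIs, unless its leading genes or depth went against the name, and 5 clusters were set by hand after their leading genes were seen (2 left unnamed, 3 named for a pair of lists). Scrublet in scanpy 1.11.5 (python 3.11.15, expected rate 8%) called 218 kept cells doublets, which stayed in except in an alternative. UMIs summed per library and class, for the 16 classes with at least 20 cells in each library, were tested in 1 fit with edgeR 4.0.16 (TMM, glmQLFit, glmQLFTest) over genes with at least 10 UMIs, with Benjamini-Hochberg adjustment at 0.05. With simulated counts for 50 genes at each log2 change of -3, -1, 1 and 3, the same fit was tested on known answers. DESeq2 1.42.0 was an alternative, beside no TMM, cells as the size, no filter, a limit of 10%, no doublets, all variable genes, a resolution of 0.5 (0.4 for subclusters), each library left out, endothelial-like cells without the *Ccl21a*-led cluster, and sums without the cell with the most UMIs of each gene other than *Obp1a* and *Mup4* in every class and library. Cells as the size and the last 2 were chosen after seeing the data, and the last removes cells by their measured value.

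The genes named are the 8 members, 2 lists (other genes of the lipocalin fold, uptake receptors), and for each member the 3 genes with the highest Pearson correlation over the sums of class and library. Leading genes of clusters, marker genes and single cells are named beside the values they bear on. The members and lists were chosen with earlier results of these data known. Equal numbers mark the same library, and the deviations of same-numbered sums correlated at 0.040 to 0.099 across genes. In each of these 16 classes the gap between libraries exceeded sampling noise (chi-square per degree of freedom from 1.60 to 9.38). Positions are from GENCODE M21 on mm10, where 32158 of 32285 gene identifiers were found, and promoters from RefSeq on GRCm38.p6. Shares of 0 are limited by 3 counts, for counting error only.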

Additional observations from a re-analysis of the deposited data

Results flagged for a closer look

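In an unnamed cluster of 221 cells, 216 of them of library 1, *Obp2a* was at 16101 CPM and *Lcn3* at 9951 CPM in library 1, which lies above all named classes outside the glands. It was led by *Gnat3*, with *Myh11* and *Spp1* among its 10 leading genes, had a median of 3373 UMIs and was in no comparison. With 5 cells of library 2, the cluster cannot be told apart from the library. Per 100 *Obp2a* UMIs it held 61.8 of *Lcn3* and 7.43 of *Obp2b*.

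The 121 barcodes with under 200 genes, which the filters remove, had a median mitochondrial share of 54.8%. Summed over both libraries they held *Obp2a* at 107474 CPM and *Lcn4* at 18078 CPM, close to or above the level in gland-like cells. These sums came from a part of the barcodes. The median barcode held 5 *Obp2a* UMIs, against a mean of 157 and a highest count of 1009, and 1 *Lcn4* UMI. Per 100 *Obp2a* UMIs they held 15.7 of *Lcn3*, against 79.9 in gland-like cells.

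The *Sprr2f*-led cluster of 234 cells that appeared at a mitochondrial limit of 10% had *Lcn2* at 4877 CPM in library 1 and 4463 CPM in library 2, above every cluster of the cells kept at 5%. Of its cells, 58 lay under the limit of 5%.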

How the results depend on the processing

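The 5 genes that lead the glands were called higher in gland-like cells in all 3 comparisons under every alternative run. Of the alternative counts of members called, 74 stayed within 1.5 times the count reported and 13 moved. In mature VSN-like cells 6 genes were lower without a filter on low counts, where 4734 of all 22398 genes tested were. At the 10% limit 5 were lower (5093 of 18731 genes), and with cells as the size 1 was (2635 of 17982). In sustentacular-like cells 5 were called without the filter (1 of them higher), where 6607 of 22398 genes were called. At the 10% limit 4 were called in these cells, where 8399 of 18731 genes were. In neutrophil-like cells 1 was higher with cells as the size, where 795 of 17982 genes were. Without the cell with the most UMIs of each gene other than *Obp1a* and *Mup4* in every class and library, 5 genes were lower in mature VSN-like and 5 in sustentacular-like cells. Of all 17933 genes, 4746 and 3182 were lower in these comparisons. Cells removed by their value make the spread smaller. With the library as a replicate block 6 genes were called in mature VSN-like and 4 in sustentacular-like cells. That pairing also called *Lcn2* against non-sensory epithelial-like cells and *Mup4* among subclusters, and changed no other count by over 1.5 times. With a library left out, the count ran from 1 to 4 in mature VSN-like, 1 to 2 in sustentacular-like and 2 to 5 in neutrophil-like cells, and the lone library is assumed to vary like the rest.

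Reversed log2 differences were those of *Lcn2* against non-sensory epithelial-like cells without TMM (-0.13) and without the highest cells (-0.045), of *Lcn3* in sustentacular-like cells at the 10% limit (-0.92) and without library 2 (-1.44, against 2.18 without library 1) and without the highest cells (-1.09), and in neutrophil-like cells, with cells as the size, of *Lcn3* (-0.48), *Lcn4* (-0.34), *Obp2a* (-0.68) and *Obp2b* (-0.67). Leaving out a library left no residual degrees of freedom among subclusters, so that fit was not run. *Mup4* lost its call against non-sensory epithelial-like cells at the 10% limit and against endothelial-like cells without TMM. The cause was not tested.

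Over all genes, leaving out TMM took the calls of gland-like against sustentacular-like cells from 2622 higher and 2769 lower to 759 and 8782, against non-sensory epithelial-like cells from 2809 and 2773 to 1078 and 7223, and against endothelial-like cells from 3530 and 3758 to 1385 and 8809. With cells as the size the neutrophil-like calls went from 2680 and 3838 to 795 and 10938. Calls among subclusters rose from 1876 to 5049 without TMM and to 4394 at the 10% limit. Counting depth limits *Obp1a* and *Mup4* to a few UMIs per class.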
